A study of Homo sapiens with 24 samples.

Results

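The mitochondrial chaperones and proteases followed here are 10 genes taken by name: HSPD1, HSPE1, HSPE1-MOB4, HSPA9, TRAP1, CLPB, CLPP, CLPX, LONP1 and GRPEL1. Their GENCODE v29 symbols were matched to the Ensembl identifiers of the count tables, and all 10 were found among the 57500 genes listed there. Most proteins of mitochondria are made in the cytosol and threaded unfolded through import channels, so the organelle keeps its own machinery to pull them in, fold them and destroy those that fail. HSPA9 (mortalin), the mitochondrial Hsp70, draws the incoming chain inward with the nucleotide exchange factor GRPEL1, and the chaperonin, a barrel of HSPD1 (Hsp60) closed by a lid of HSPE1 (Hsp10), gives the chain a closed chamber to fold in. TRAP1 is the mitochondrial Hsp90, CLPB takes aggregates apart in the intermembrane space, LONP1 degrades damaged matrix proteins, and CLPX unfolds proteins and feeds them to the peptidase CLPP. HSPE1-MOB4 is an annotated readthrough gene that joins HSPE1 to its neighbor MOB4, which encodes a kinase-regulating protein of the STRIPAK phosphatase complex. Genes of this group are textbook targets of the heat shock response and of the mitochondrial unfolded protein response, a nuclear program that answers misfolding inside the organelle.

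RNA was sequenced from multicellular spheroids of FaDu and SAS, established lines of head and neck squamous cell carcinoma (HNSCC). The FaDu cells used are a subline of the ATCC FaDu line. Spheroids of each line were left as Control, irradiated (RT, with 7 Gy in FaDu but 10 Gy in SAS), heated (HT, 42.5 °C for 60 min) or heated and then irradiated straight away (HT + RT), with 3 libraries per group and 24 in all. Control spheroids were sealed like the heated ones and kept at culture temperature. RNA was taken 0.5 h after treatment, so every value is an early one, and the values below are of RNA only. A spheroid was sequenced whole, so that fewer cells of a kind and less RNA per cell cannot be told apart.

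Library totals ran from 15203484 to 29452514 counts, with a median of 18378943. At that depth 3 counts, the upper limit that a count of 0 allows, stood for 0.102 to 0.197 CPM, the unit used below (counts divided by library size, which TMM factors adjust in all later values), for counting error only. The FaDu libraries numbered 1 stood apart from the other two of their group in all 4 FaDu groups. Pairs with a FaDu library numbered 1 differed by a chi-square of 13.6 to 19.5 per gene, and the remaining FaDu pairs by 3.29 to 4.69. Counts of called members within FaDu are therefore also given without these libraries, left out after seeing the data. Without them HSPD1 had a log2 fold change from control to heat of 0.79, HSPE1 of 0.51 and CLPX of -0.52, each called, and the number called was 3 for heat, 3 for HT + RT against control and 0 for RT against control and for HT + RT against HT.

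The squamous label held in every group, with 10 of 10 keratinocyte and squamous markers at 1 CPM or more. Their summed median level was 11829 CPM in FaDu controls and 4607 CPM in SAS controls, and KRT17 was the most abundant. Of 6 fibroblast markers 1 reached 1 CPM, the collagen gene COL1A1, and DCN, LUM or COL3A1 had no count in some groups. COL1A1 moved with heat, from a mean of 1.33 CPM in SAS controls to 23.6 CPM in heated SAS spheroids and from 41.9 CPM to 53.8 CPM in FaDu. The summed fibroblast markers ran from 1.65 to 2.42 CPM in SAS controls and from 17.0 to 31.1 CPM after heat, and their part in the results was not tested. Of 5 leukocyte markers 1 reached 1 CPM, CD68, with 1.78 CPM in both control groups. Of 4 endothelial markers 3 reached 1 CPM in FaDu controls and 2 in SAS controls, and CDH5 was highest, with 4.19 CPM in FaDu and 14.5 CPM in SAS controls, while KDR had no count in either control group.

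HSPD1 and HSPE1 lie head to head on chromosome 2. In GENCODE v29 HSPD1 (ENSG00000144381) spans chr2:197486581-197516737 on the minus strand and HSPE1 (ENSG00000115541) spans chr2:197499994-197503457 on the plus strand. RefSeq promoter windows (GRCh38.p14), each running from upstream of an annotated start to 50 bases past it, were found for 8 of the 10 genes, 9 different windows in all since HSPE1 and HSPE1-MOB4 share 1, and none for CLPP and GRPEL1. The windows were searched on both strands for the heat shock element, the sequence that heat shock factors bind, as 2 facing units (GAANNTTC or TTCNNGAA, each its own reverse complement) and as 3 units in a row. A heat shock element of 2 units was in 2 of the 9 windows, beside 13.5% of all 34943 different RefSeq windows, and one of 3 units in 1 window, beside 0.489%. The element for CHOP and ATF4 (CARE, TGATGNAA or TTNCATCA), known from genes of the integrated stress response, was in 0 of the 9 windows and in 3.62% of all. The windows of HSPD1 and HSPE1 are shown because these genes moved together after heat, and that of HSPA9 because it also holds a match and its gene was called in no heat comparison. Capitals mark letters that belong to a heat shock element. The HSPD1 window is chr2:197499791-197500090 (minus strand), that of HSPE1 is chr2:197500129-197500428 (plus strand, the same window as HSPE1-MOB4), and that of HSPA9 is chr5:138575352-138575651 (minus strand).
HSPD1: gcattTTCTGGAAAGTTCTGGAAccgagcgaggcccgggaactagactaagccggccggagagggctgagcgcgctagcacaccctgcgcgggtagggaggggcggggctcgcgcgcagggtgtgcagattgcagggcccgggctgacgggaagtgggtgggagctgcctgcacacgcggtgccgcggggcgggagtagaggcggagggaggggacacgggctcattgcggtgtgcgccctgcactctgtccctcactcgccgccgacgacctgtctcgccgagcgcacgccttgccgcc
HSPE1: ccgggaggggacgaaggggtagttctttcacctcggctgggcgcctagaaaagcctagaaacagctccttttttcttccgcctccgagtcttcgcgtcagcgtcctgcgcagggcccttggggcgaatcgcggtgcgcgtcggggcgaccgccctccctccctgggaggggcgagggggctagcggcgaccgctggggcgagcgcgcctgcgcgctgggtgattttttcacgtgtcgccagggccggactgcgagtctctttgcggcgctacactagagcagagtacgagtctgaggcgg
HSPA9: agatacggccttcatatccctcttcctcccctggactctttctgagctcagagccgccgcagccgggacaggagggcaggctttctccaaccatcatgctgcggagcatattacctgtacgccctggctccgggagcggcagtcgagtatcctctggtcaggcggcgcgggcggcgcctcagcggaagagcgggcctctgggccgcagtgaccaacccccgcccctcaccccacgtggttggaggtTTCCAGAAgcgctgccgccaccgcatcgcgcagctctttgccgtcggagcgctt
The HSPD1 run of 18 bases lies 228 to 245 bases upstream of the HSPD1 start of that window and 294 to 311 bases from the HSPE1 start. HSPD1 has another start, 434 bases further upstream and 105 bases from that of HSPE1, whose window holds no match. The run lies 189 to 206 bases downstream of that other HSPD1 start, and inside the GENCODE v29 spans of both genes. A match is a description of letters, not a measured site.

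The chaperonin rose with heat in both lines. HSPD1 stood at 764, 631 and 666 CPM in the FaDu controls and at 1012, 1001 and 1186 CPM after heat. In SAS it stood at 1407, 1343 and 1200 CPM in the controls and at 2695, 2433 and 2708 CPM after heat. Each heated library was above each control of its line, so the groups did not overlap. HSPE1, its lid, stood at 199, 169 and 159.8 CPM in the FaDu controls and at 237, 219 and 238 CPM after heat. In SAS it went from 233, 230 and 193 CPM to 341, 369 and 377 CPM. Here too the groups did not overlap in either line.

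In FaDu the log2 fold change of HSPD1 from control to heat was 0.66 ± 0.10 (SE, n = 3 per group), 1.58-fold, with an edgeR adjusted p = 0.0028. That of HSPE1 was 0.42 ± 0.09, 1.34-fold, with an edgeR adjusted p = 0.014. The HSPE1 call in FaDu was lost when some single libraries were left out, with a fold change of similar size. Its adjusted p was 0.059 without FaDu control 2 (log2 fold change 0.40), 0.059 without control 3 (0.35) and 0.057 without HT library 3 (0.39). In SAS HSPD1 rose by 1.02 ± 0.07 on the log2 scale, 2.03-fold (edgeR adjusted p = 5.1e-07), and HSPE1 by 0.76 ± 0.07, 1.69-fold (1.3e-05). HSPD1 in SAS sat on the border of the log2 fold change threshold of 1, at a log2 fold change of 0.96 without control 3, 0.99 without HT library 1 and 0.94 with library totals as the only scaling.

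The chaperonin rose again when irradiated spheroids were compared with heated and irradiated ones, a comparison that shares no library with the one above. In FaDu HSPD1 stood at 717, 592 and 630.3 CPM after RT and at 1021, 1157 and 1245 CPM after HT + RT. In SAS it stood at 1363, 1268 and 1284 CPM after RT and at 2881, 2777 and 2953 CPM after HT + RT. The groups did not overlap. HSPE1 stood at 173, 163 and 164 CPM in irradiated FaDu and at 224, 241 and 221 CPM with heat added. In SAS it stood at 233, 193 and 201 CPM and, with heat added, at 419, 433 and 417 CPM. These groups did not overlap either. The log2 fold changes of HSPD1 were 0.84 ± 0.09 in FaDu (edgeR adjusted p = 0.00071) and 1.18 ± 0.05 in SAS (1.5e-08). Those of HSPE1 were 0.47 ± 0.06 in FaDu (edgeR adjusted p = 0.0015) and 1.06 ± 0.07 in SAS (6.9e-07). With library totals as the only scaling HSPE1 in SAS fell under the threshold of 1, at 0.98.

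**Figure D1:**
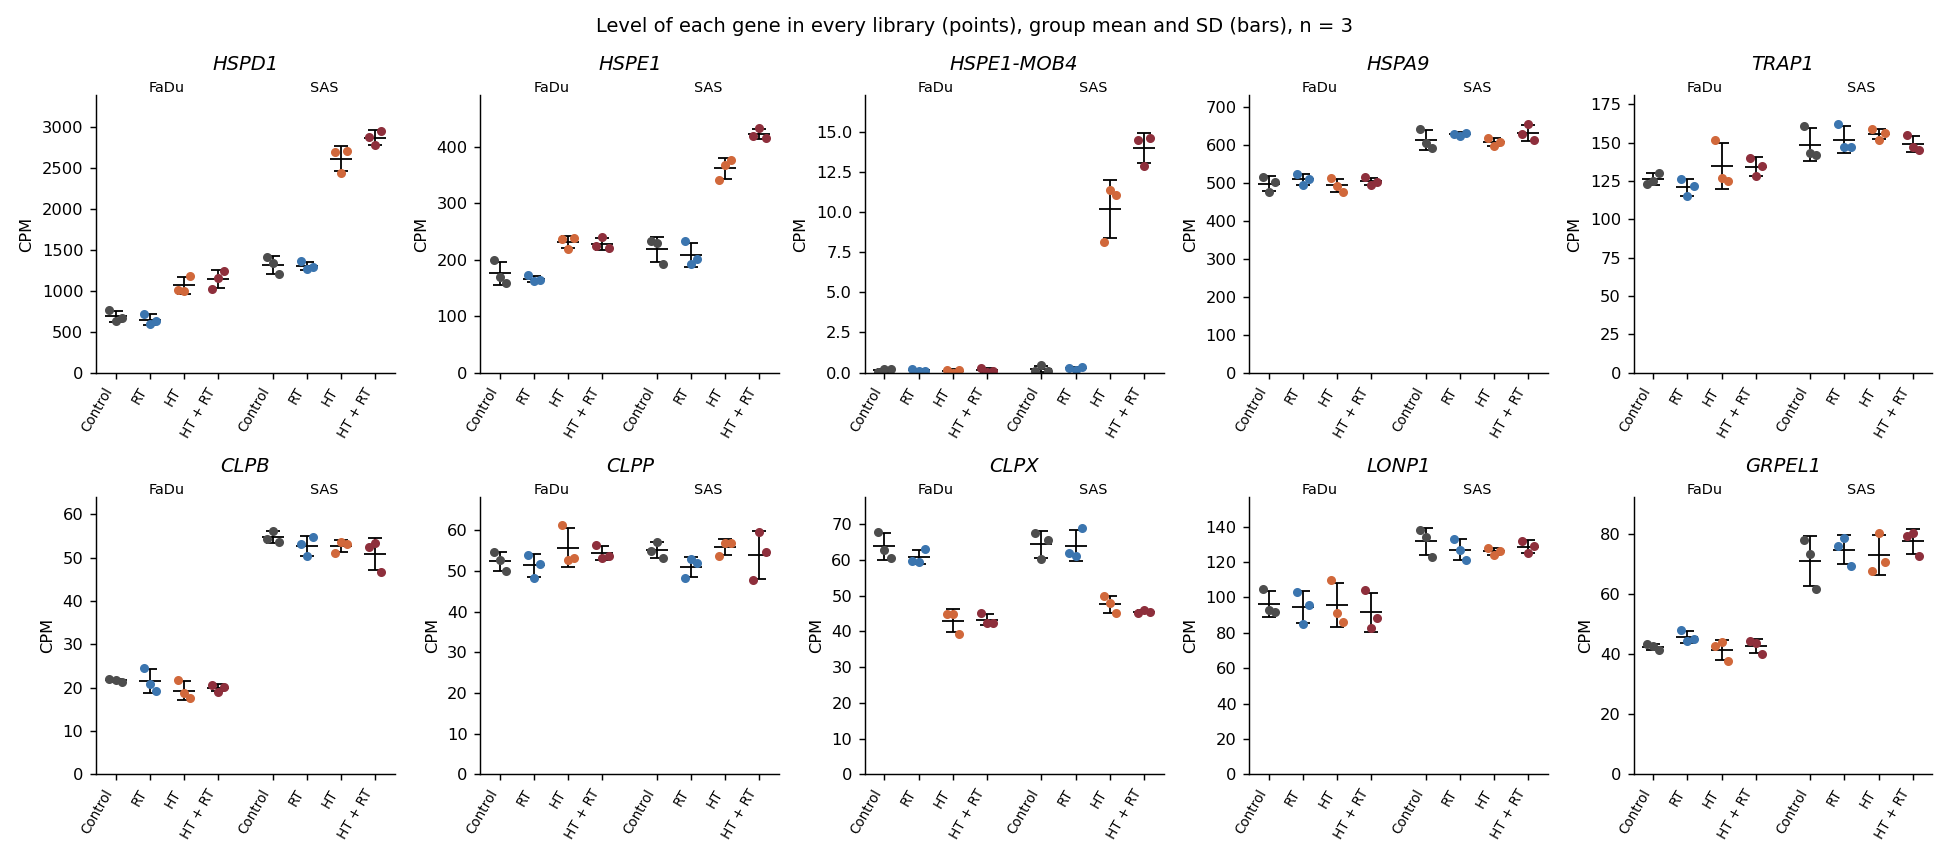
Level of each of the 10 genes in CPM (TMM-scaled counts) in every library, as points by group, with bars for the group mean and SD (n = 3). HSPD1 and HSPE1 are higher and CLPX is lower in the heated groups of both lines, HSPE1-MOB4 is higher in heated SAS groups, from 8.11 to 14.6 CPM, and the remaining 6 genes were called in no heat comparison.

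HSPE1-MOB4 (ENSG00000270757, chr2:197500413-197550726, plus strand) runs from HSPE1 into MOB4. Its counts in the SAS controls were 2, 8 and 2, and after RT 5, 3 and 6. With heat they were 144, 218 and 205, and with the combined treatment 217, 252 and 282. Every heated SAS library was far above every unheated one. In FaDu the counts were 1, 4 and 5 in controls, 4, 2 and 3 after RT, 3, 0 and 3 with heat, and 5, 1 and 3 with heat and radiation. All FaDu groups overlapped, and the gene was too low there to be tested. A rise of the size seen in SAS was thus not seen in FaDu, while a small change was not detectable at this depth. In SAS the log2 fold change was 5.48 ± 0.35 from control to heat and 5.78 ± 0.23 from RT to HT + RT. The gene passed the filter on low counts through its heated SAS libraries alone, so these values are descriptions, no p is given with them, and it is left out of the counts of called members below. With so few counts in unheated SAS spheroids the size of these fold changes also depends on the prior count of the fit.

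The annotation limits what this readthrough value can mean. All 890 exonic bases of HSPE1-MOB4 lie in exons of its neighbors, 192 in HSPE1 and 698 in MOB4, and 0 elsewhere, so its counts depend on how reads shared by overlapping genes were assigned, which the sources used here do not give. HSPD1 and HSPE1, on opposite strands, share 281 exonic bases, and the strand setting of the counting is not given either. MOB4 itself stood at 40.9, 39.6 and 33.4 CPM in SAS controls, at 49.3, 54.8 and 55.0 CPM after heat and at 69.1, 71.3 and 67.2 CPM after HT + RT. Its heated and unheated SAS groups did not overlap. MOB4 rose by 0.52 ± 0.09 on the log2 scale from control to heat in SAS (edgeR adjusted p = 0.0011) and by 0.83 ± 0.07 from RT to HT + RT (6.2e-06). In FaDu the MOB4 values were -0.12 ± 0.10 (edgeR adjusted p = 0.47) and -0.26 ± 0.09 (0.087), and in the second of these comparisons the libraries did not overlap, with means of 21.6 ± 1.78 CPM (SD) after RT and 17.9 ± 0.198 CPM after HT + RT.

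HSPA9 and GRPEL1, the motor that pulls in and hands on the incoming chain, passed no heat test in either line. HSPA9 (ENSG00000113013, chr5:138553756-138575724, minus strand) had group means of 494 to 509.8 CPM in FaDu and 609 to 634 CPM in SAS. Its log2 fold changes with heat were 0.01 ± 0.06 in FaDu (edgeR adjusted p = 0.93) and 0.02 ± 0.05 in SAS (0.84). In irradiated spheroids they were 0.0 ± 0.05 and 0.05 ± 0.05. CPM values are scaled over all 24 libraries and each test over its own, so that differences this small can differ in sign, as the HSPA9 means do without and with heat (499 and 494 CPM in FaDu, 614 and 609 CPM in SAS). HSPA9, whose window holds a match to the heat shock element, thus differed by less than the spread between its replicates. GRPEL1 (ENSG00000109519, chr4:7058906-7068197, minus strand) had group means of 41.5 to 45.8 CPM in FaDu and 71.0 to 77.6 CPM in SAS. Its log2 fold changes with heat were -0.01 ± 0.08 in FaDu and 0.07 ± 0.09 in SAS. From SAS control to HT + RT its value was 0.18 ± 0.08, with an edgeR adjusted p of 0.15, and of 0.016 with the replicate number as a block, under which 35.5% of all genes passed. In irradiated FaDu spheroids its libraries without and with heat did not overlap, at 44.4 to 48.0 CPM and 40.1 to 44.3 CPM, a difference that was not called (-0.09 ± 0.07, edgeR adjusted p = 0.46).

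TRAP1 and CLPB, the mitochondrial Hsp90 and the disaggregase, passed no heat test either. TRAP1 (ENSG00000126602, chr16:3651639-3717597, minus strand) had heat values of 0.12 ± 0.08 (log2 fold change) in FaDu (edgeR adjusted p = 0.36) and of 0.10 ± 0.06 in SAS (0.29). Between irradiated FaDu spheroids without and with heat its libraries did not overlap, from 115 to 126 CPM and from 128 to 140.3 CPM. That difference was 0.17 ± 0.06 with an edgeR adjusted p of 0.089, and it passed with the replicate block (0.021, beside 31.0% of all genes) and without the FaDu libraries numbered 1 (0.16, adjusted p 0.042). In SAS the same comparison gave 0.01 ± 0.06. CLPB (ENSG00000162129, chr11:72285495-72434680, minus strand) gave -0.14 ± 0.10 in FaDu and -0.02 ± 0.06 in SAS from control to heat, neither called. From control to HT + RT its libraries did not overlap in either line, with 21.2 to 22.0 and 19.1 to 20.7 CPM in FaDu and 53.6 to 56.2 and 46.7 to 53.4 CPM in SAS. Those differences were not called either (-0.10 ± 0.08, edgeR adjusted p = 0.46, and -0.05 ± 0.07, 0.64).

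Among the proteolytic genes CLPX fell with heat in both lines, and its partner CLPP and the protease LONP1 passed no heat test. CLPX (ENSG00000166855, chr15:65148219-65185342, minus strand) stood at 67.9, 62.8 and 60.6 CPM in FaDu controls and at 44.8, 44.8 and 39.3 CPM after heat. In SAS it stood at 67.4, 60.2 and 65.5 CPM in controls and at 49.9, 47.8 and 45.0 CPM after heat. All heated libraries lay below all controls of their line. After RT it stood at 59.8, 59.5 and 63.0 CPM in FaDu, and after HT + RT at 45.2, 42.4 and 42.3 CPM. In SAS the values were 61.9, 61.1 and 69.0 CPM after RT and 45.0, 46.0 and 45.5 CPM after HT + RT. Again no heated library reached an unheated one.

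CLPX fell by 0.55 on the log2 scale from control to heat in FaDu (SE 0.08, 0.684-fold, edgeR adjusted p = 0.002) and by 0.40 in SAS (SE 0.07, 0.756-fold, 0.0019). From RT to HT + RT its log2 fold change was -0.48 ± 0.06 in FaDu (edgeR adjusted p = 0.0012) and -0.45 ± 0.07 in SAS (0.00038). It was the only one of the 10 genes called lower with heat, and its direction and call were the same under every scaling tried. CLPP (ENSG00000125656, chr19:6361452-6368910, plus strand) had heat values of 0.11 ± 0.08 in FaDu (edgeR adjusted p = 0.39) and 0.05 ± 0.07 in SAS (0.62). LONP1 (ENSG00000196365, chr19:5691834-5720572, minus strand) had heat values of 0.01 ± 0.10 in FaDu and -0.03 ± 0.06 in SAS.

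**Figure D2:**
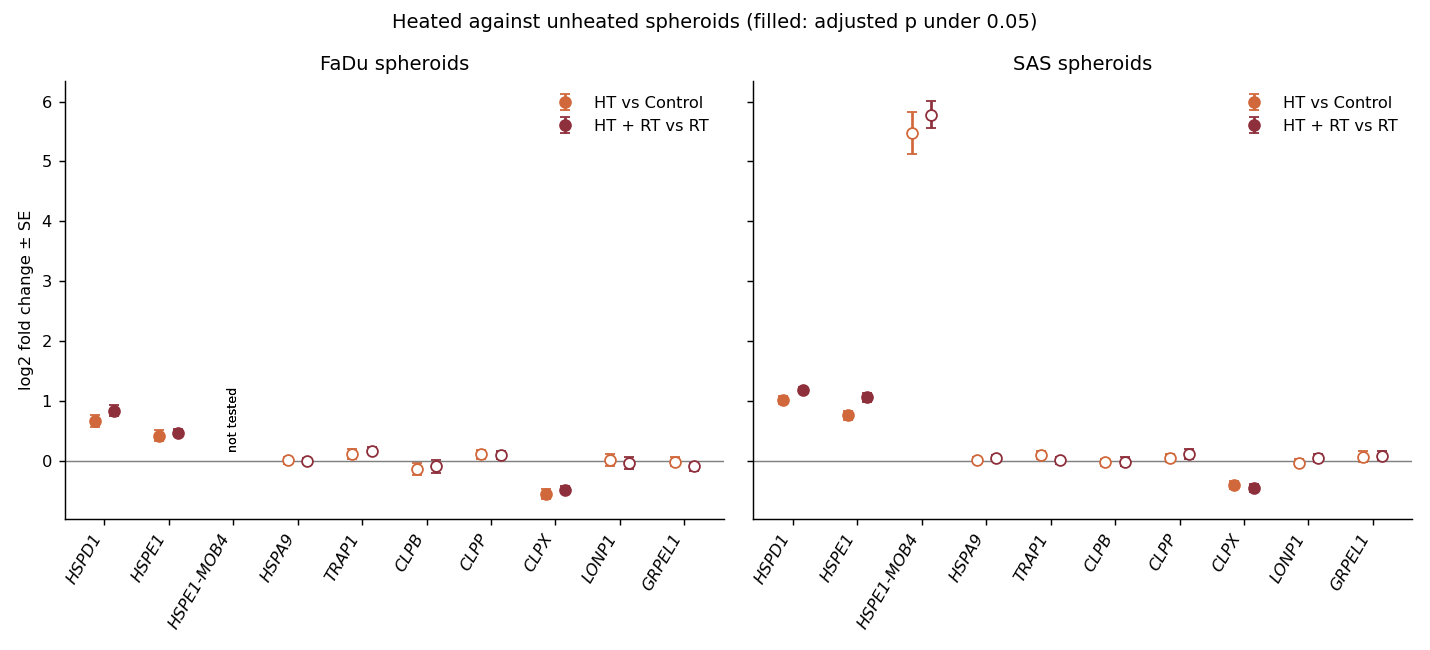
Log2 fold change with its SE for each tested gene with heat, from Control to HT and from RT to HT + RT, in FaDu and SAS spheroids (filled points: edgeR adjusted p under 0.05). HSPD1 and HSPE1 are above 0 and CLPX is below 0 in all 4 comparisons, HSPE1-MOB4, which entered through its heated libraries alone and is drawn open, is at 5.48 and 5.78 in SAS, and the remaining genes lie between -0.14 and 0.17.

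The question of the heat comparisons was what hyperthermia alone changes in the transcriptome. A gene counts as called at an edgeR adjusted p under 0.05, and as altered when its absolute log2 fold change is also over 1. From FaDu control to heat 9 of the 10 genes could be tested, 2 rose (HSPD1 and HSPE1) beside 7.95% of all 15879 genes tested, and 1 fell (CLPX) beside 9.69%. None was altered upward in FaDu, beside 4.29% of genes, and DESeq2 gave the same count of 0. In SAS HSPE1-MOB4 is not counted, since its test rested on its heated libraries alone. Of the other 9 genes 2 rose (HSPD1 and HSPE1), beside 12.2% of all 15000 genes, 1 fell (CLPX), beside 11.4%, and 1 was altered upward (HSPD1), beside 5.31%. Over the genes that could also be tested between control and RT, as these 9 could, the shares that rose, fell and were altered upward were 6.51%, 10.0% and 2.72% in FaDu and 10.5%, 11.9% and 3.42% in SAS. The 6 genes not called lay between -0.14 and 0.12 (log2 fold change) in FaDu and between -0.03 and 0.1 in SAS. The medians of the 9 were 0.01 and 0.05, and those of all genes 0.01 and 0.0. In FaDu 45.1% of all calls were upward, or 29.6% with library totals as the only scaling, and in SAS 51.5% or 34.2%.

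Heat in irradiated spheroids was counted in the same way. From RT to HT + RT in FaDu 2 of 9 rose, beside 9.37% of all 15905 genes, and 1 fell, beside 9.9%. Without the FaDu libraries numbered 1 the number called was 4, with TRAP1 added. None of the 9 was altered upward, beside 4.76%, with 0 by DESeq2 as well. In SAS 2 of the 9 without HSPE1-MOB4 rose, beside 14.1% of all 15125 genes, 1 fell, beside 13.8%, and 2 were altered upward (HSPD1 and HSPE1), beside 5.71%. Over the genes tested also between control and RT these shares were 7.65%, 10.3% and 2.87% in FaDu and 12.5%, 14.3% and 3.86% in SAS. Upward calls made up 48.6% of all calls in FaDu, or 30.3% with library totals alone, and 50.5% or 34.9% in SAS.

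The combined treatment was also set against the controls, which it shares with the comparison of heat alone. In FaDu HSPD1 had a log2 fold change of 0.75 ± 0.10 (edgeR adjusted p = 0.00091), HSPE1 one of 0.40 ± 0.09 (0.013) and CLPX one of -0.54 ± 0.07 (0.00099). The HSPE1 adjusted p was 0.062 without control 2 (0.37), 0.06 without control 3 (0.33) and 0.057 without HT + RT library 2 (0.35). In SAS HSPD1 had 1.18 ± 0.06 (edgeR adjusted p = 3.2e-08), HSPE1 1.0 ± 0.07 (7.2e-07) and CLPX -0.45 ± 0.07 (0.00044), and HSPE1-MOB4, not counted, stood at 5.95 ± 0.29. Thus 2 of 9 rose in FaDu, beside 9.52% of all genes tested, 1 fell, beside 9.78%, and none was altered upward, beside 5.08%, with 0 by DESeq2. In SAS 2 of 9 rose, beside 13.6%, 1 fell, beside 11.5%, and 2 were altered upward, beside 5.76%. Over the genes tested also between control and RT these shares were 7.68%, 10.1% and 3.08% in FaDu, and 1737 of 14460 genes, 11.8% and 3.89% in SAS. HSPE1 was on the border of altered there, so that DESeq2, at 0.99, left it out, and its value was 0.91 with library totals alone, 0.98 without a filter, 0.92 without SAS control 3 and 0.99 without HT + RT library 2. Upward calls were 49.3% of all calls in FaDu, or 31.4% with library totals alone, and 54.3% or 35.8% in SAS.

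Radiation alone called none of these genes at 0.5 h. In FaDu the log2 fold changes of the 9 tested genes from control to RT ran from -0.09 (HSPD1) to 0.11 (GRPEL1), and in SAS from -0.11 (CLPP) to 0.08 (GRPEL1). The libraries of these extremes did not overlap for GRPEL1 in FaDu (41.4 to 43.3 and 44.4 to 48.0 CPM, edgeR adjusted p = 1.0) and for CLPP in SAS (53.2 to 57.1 and 48.2 to 52.9 CPM, 0.93). The edgeR count was 0 of 9 in each line, with 0 at an unadjusted p under 0.05 and 0 by DESeq2. Over all genes 0.0322% of 15552 were called in FaDu and 0.0749% of 14680 in SAS, that is 5 and 11 genes, but 57 and 45 by DESeq2, 312 and 288 under the replicate block and 791 and 834 at an unadjusted p under 0.05. Radiation added to heat gave 0 called members of 9 in each line with edgeR, without HSPE1-MOB4, beside 0.0% of all genes in both lines (6 and 34 genes by DESeq2, which called 0 members). At an unadjusted p under 0.05 the counts were 0 of 9 in FaDu, beside 361 of 16145 genes, and 2 of 9 in SAS (HSPD1 and HSPE1), beside 673 of 15341. From HT to HT + RT in SAS the log2 fold change was 0.15 ± 0.05 for HSPD1 (edgeR adjusted p = 0.96), 0.24 ± 0.05 for HSPE1 (0.3) and 0.47 ± 0.14 for HSPE1-MOB4, and their libraries did not overlap. With the replicate block HSPD1 (adjusted p 0.024) and HSPE1 (0.0031) passed, beside 0.906% of all genes. In FaDu the 9 values ran from -0.07 to 0.09.

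The response to heat was also compared between the lines, as FaDu minus SAS. From control to heat this difference was -0.33 ± 0.13 for HSPD1 (edgeR adjusted p = 0.18) and -0.31 ± 0.13 for HSPE1 (0.2), and neither passed. Without a filter on low counts both passed (HSPD1 -0.37, adjusted p 0.0047, and HSPE1 -0.35, 0.045). HSPD1 also passed with the replicate block (0.038, beside 1886 of 17219 genes) and without FaDu HT library 3 (-0.46, 0.043), so these calls depend on the processing. In irradiated spheroids HSPE1 rose less in FaDu, by a difference of -0.61 ± 0.10 (edgeR adjusted p = 0.0015). HSPD1 had -0.36 ± 0.11 there (edgeR adjusted p = 0.065), which passed without a filter (-0.32, 0.0097), with the replicate block (0.02, beside 2365 of 17376 genes) and without FaDu HT + RT library 3 (-0.43, 0.041). The values of HSPE1-MOB4 were -5.95 ± 1.06 and -5.79 ± 0.78, given without a test because it entered through heated SAS libraries alone, and their size depends on the prior count. CLPX gave -0.11 ± 0.11 (edgeR adjusted p = 0.68) and -0.05 ± 0.09 (0.86). Without HSPE1-MOB4, 0 of 9 members were called lower in FaDu than in SAS for heat alone, beside 3.25% of all genes, and 0 were altered, beside 1.49%. In irradiated spheroids the counts were 1 of 9 (HSPE1), beside 5.15%, and 0, beside 2.02%.

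The balance between partners, seen as ratios of raw counts within a library, which need no scaling, differed with heat for some pairs and not for others. The ratio of HSPE1 to HSPD1 ran from 0.24 to 0.275 (median 0.26) in the 6 unheated FaDu libraries and from 0.177 to 0.234 (median 0.214) in the 6 heated ones, with no overlap. In SAS it ran from 0.152 to 0.171 (median 0.163) without heat and from 0.126 to 0.156 (median 0.143) with it, with overlap. The lid thus rose less than the barrel. The log2 difference was -0.30 in FaDu (exact two-sided permutation p = 0.005, the smallest these permutations can give, and 0.01 after Benjamini-Hochberg over 8 ratios) and -0.19 in SAS (exact p = 0.01, adjusted 0.016). Libraries of the same replicate number resemble each other, so the permutations were also run within replicate numbers, an alternative chosen after seeing the data. The exact permutation p was then 0.0093 in FaDu, the smallest possible, and 0.019 in SAS (adjusted 0.019 and 0.03). Within pairs of the same replicate number and radiation it was 0.031, again the smallest possible, and 0.062 (adjusted 0.062 and 0.083), and none of the 8 ratios passed after adjustment.

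The ratio of CLPX to CLPP, the unfoldase over its peptidase, ran from 1.11 to 1.24 without heat and from 0.731 to 0.849 with it in FaDu. In SAS it ran from 1.05 to 1.33 and, with heat, from 0.773 to 0.94. Heated and unheated libraries did not overlap in either line. The log2 differences were -0.61 and -0.51 (exact permutation p = 0.005 each, adjusted 0.01, and 0.0093 within replicate numbers, adjusted 0.019). The ratio of GRPEL1 to HSPA9 differed by -0.05 in FaDu (exact permutation p = 0.19, adjusted 0.25) and by 0.05 in SAS (exact p = 0.45, adjusted 0.45). HSPE1-MOB4 per HSPE1 count had a median of 0.00101 in unheated and 0.0304 in heated SAS libraries, a log2 difference of 4.75 (exact permutation p = 0.005, adjusted 0.01, and 0.0093 within replicate numbers, adjusted 0.019). In FaDu that difference was -0.83 (exact permutation p = 0.21, adjusted 0.25), at 0 to 5 counts per library. The ratio tests use no filter on low counts, but in SAS this last ratio repeats the contrast described above without a p. It was chosen with earlier results of these data known, and adds no separate support.

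**Figure D3:**
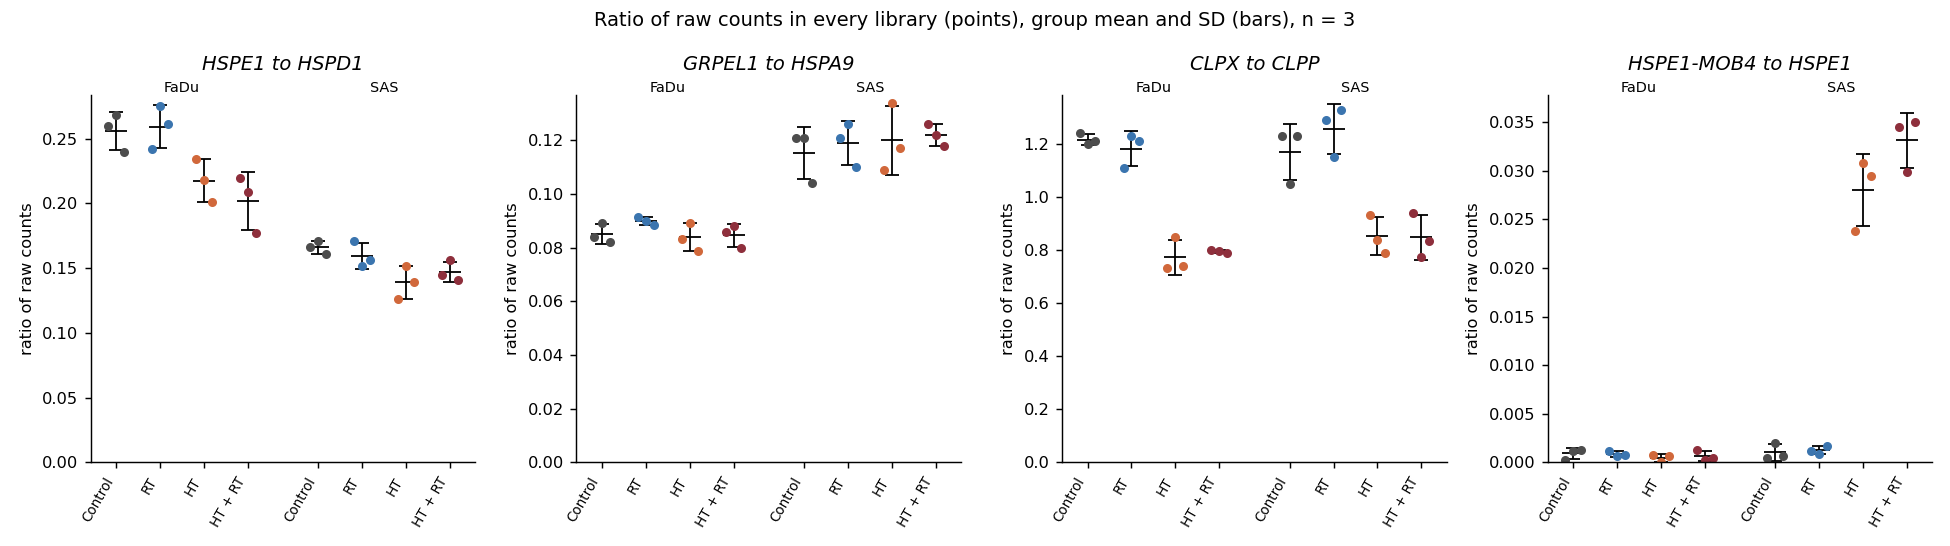
Ratio of raw counts of partner genes in every library, as points by group, with bars for the group mean and SD (n = 3). HSPE1 to HSPD1 and CLPX to CLPP are lower in heated groups, GRPEL1 to HSPA9 stays between 0.0789 and 0.0913 in FaDu and between 0.104 and 0.134 in SAS, and HSPE1-MOB4 to HSPE1 reaches 0.035 in heated SAS.

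HSPD1 held the largest share of the summed level of the 10 genes, without heat as with it. It made up 38.9% ± 1.35 (SD, n = 3) of their summed CPM in FaDu controls and 48.8% ± 3.26 after heat. In SAS its share went from 49.2% ± 0.813 to 63.6% ± 1.44. The sum itself was 1765 ± 116.0 CPM in FaDu controls and 2182 ± 85.7 CPM after heat, and 2676 ± 177.0 CPM and 4103 ± 154.0 CPM in SAS. Both differences were larger than the spread between replicates.

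Per length the chaperonin led in both lines. In SAS controls the level in CPM per kilobase of annotated exon was 310.2 ± 25.0 (SD, n = 3) for HSPD1, 111 ± 11.3 for HSPE1 and 74.4 ± 3.14 for HSPA9. TRAP1 (28.4 ± 2.01), LONP1 (25.9 ± 1.49) and CLPP (24.2 ± 0.848) came next. GRPEL1 (17.0 ± 1.99), CLPX (11.8 ± 0.685), CLPB (4.4 ± 0.109) and HSPE1-MOB4 (0.256 ± 0.222) were lowest. In FaDu controls the level per kilobase of exon was 162 ± 16.3 for HSPD1, 89.0 ± 10.2 for HSPE1 and 60.5 ± 2.38 for HSPA9. TRAP1 had 24.1 ± 0.752, CLPP 23.0 ± 1.04 and LONP1 19.0 ± 1.52, and CLPX (11.7 ± 0.684) was above GRPEL1 (10.2 ± 0.24). CLPB had 1.74 ± 0.0326 and HSPE1-MOB4 0.175 ± 0.1. The order depends on the length used. Per kilobase of the longest coding sequence, a length chosen after seeing the data, HSPE1 (575 ± 65.9) was above HSPD1 (399.6 ± 40.2) in FaDu controls.

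Before any treatment FaDu spheroids held less of most of these genes than SAS spheroids under TMM scaling, in the comparison of the 2 control groups. CLPB differed most, with 21.2 to 22.0 CPM in FaDu and 53.6 to 56.2 CPM in SAS and a log2 difference of -1.3 ± 0.07 (edgeR adjusted p = 4.7e-08). HSPD1 had -0.91 ± 0.09 (edgeR adjusted p = 2.9e-06), GRPEL1 -0.71 ± 0.09 (2.4e-05) and LONP1 -0.42 ± 0.08 (0.00047). These groups did not overlap. Smaller differences were called for HSPA9 (-0.27 ± 0.06, edgeR adjusted p = 0.002), HSPE1 (-0.29 ± 0.10, 0.02) and TRAP1 (-0.21 ± 0.07, 0.016), while CLPP (-0.04, 0.61) and CLPX (0.02, 0.84) were not called. In all 7 of 9 tested members were lower in FaDu, beside 36.4% of all 15810 genes, and none was higher, beside 38.6%. CLPB was the 1 member lower by more than 1, beside 16.9%.

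The smaller differences between the control groups depended on scaling and on single libraries. Library totals as the only scaling moved the median log2 difference of all genes from 0.03 to 0.2. HSPE1 (-0.12, edgeR adjusted p = 0.26), HSPA9 (-0.1, 0.11) and TRAP1 (-0.04, 0.62) then lost their call, and CLPX gained one (0.19, 0.029). The control libraries of HSPE1 overlapped between the lines. Its adjusted p was 0.073 without FaDu control 2 (-0.25), 0.097 without FaDu control 3 (-0.2), 0.074 without SAS control 1 (-0.25) and 0.07 without SAS control 2 (-0.26). That of TRAP1 was 0.062 without SAS control 1 (-0.16). CLPB, HSPD1, GRPEL1 and LONP1 were called under every scaling and without any one library.

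The genes most like HSPD1 over the 24 libraries, after centering each line on its mean, were sought among 9777 genes with enough counts. The closest by Pearson correlation were DNAJA1 (0.993) and HSPH1 (0.992), a J-domain co-chaperone and an Hsp110 exchange factor of cytosolic Hsp70. CACYBP (0.991), a Hsp90-associated protein, MRPL18 (0.987), a protein of the mitochondrial ribosome, and FKBP4 (0.987), an Hsp90 co-chaperone, came next. Spearman values of these 5 ran from 0.957 to 0.97, and by Spearman UBE2B (0.964) took the place of HSPH1. Among the members HSPE1 had 0.962 and CLPX -0.923, and the remaining ones ran from -0.422 (CLPB) to 0.351 (TRAP1). These are descriptions across 24 libraries that share the same 8 groups. With heat DNAJA1 had log2 fold changes of 1.15 in FaDu and 1.87 in SAS, and MRPL18 of 1.14 and 1.92, given without a p because the genes were picked for following HSPD1 in the same libraries.

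For the companion lists the shares of all genes that rose and fell from control to heat were 7.95% and 9.69% in FaDu and 12.2% and 11.4% in SAS. Over the genes also tested between control and RT, to which the list counts are held, they were 6.51% and 10.0% in FaDu and 10.5% and 11.9% in SAS. Of 12 co-chaperones and folding factors of the organelle, 0 of 11 tested were called in FaDu. In SAS 1 of 11 rose (DNAJC15, 0.38 ± 0.07) and 0 fell. DNAJC15 is named because it is that 1 gene, after its values were seen, and is given without a p. DNLZ, a zinc finger partner of HSPA9, entered the SAS tests through heated libraries alone and is not counted. It stood at 0.264 ± 0.0829 CPM (SD, n = 3) in SAS controls and at 1.21 ± 0.157 CPM after heat, a log2 fold change of 2.2 ± 0.40, and its value from RT to HT + RT in SAS was 1.19. From RT to HT + RT in FaDu, where DNLZ also entered through heated libraries alone, its value was 1.27 ± 0.51. HSCB, the J-domain protein of iron-sulfur cluster assembly, had 0.3 ± 0.14 in FaDu (edgeR adjusted p = 0.18), and GRPEL2, the paralog of GRPEL1, -0.17 ± 0.09 in SAS (0.22). Of 16 other mitochondrial proteases and peptidases, 0 were called in FaDu, and in SAS 1 rose and 1 fell. The one that rose was XPNPEP3, an aminopeptidase, with 1.27 ± 0.11 (edgeR adjusted p = 5.4e-06), and PMPCA, a subunit of the presequence-cleaving peptidase, fell by 0.26 (SE 0.06, 0.01). In FaDu PMPCA had -0.29 ± 0.10 (edgeR adjusted p = 0.068). From RT to HT + RT PMPCA fell in both FaDu (-0.34 ± 0.08, edgeR adjusted p = 0.017) and SAS (-0.28 ± 0.05, 0.0024). In FaDu XPNPEP3 had -0.01 ± 0.07 from control to heat, and the difference between the lines was -1.26. HTRA2, on both lists, had -0.16 ± 0.09 in FaDu and -0.03 ± 0.10 in SAS, and IMMP2L 0.47 ± 0.15 in FaDu (edgeR adjusted p = 0.069).

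Of 27 import genes 26 were tested. With heat 1 rose and 1 fell in FaDu (3.85% each, beside 6.51% and 10.0% of all genes also tested between control and RT). In SAS 1 rose and 4 fell (3.85% and 15.4%, beside 10.5% and 11.9%). TOMM7, a small subunit of the outer membrane channel, rose from control to heat in FaDu (0.3 ± 0.06, edgeR adjusted p = 0.012) and SAS (0.21 ± 0.07, 0.033), and from RT to HT + RT in SAS (0.24 ± 0.06, 0.011). Its FaDu value there was 0.14 ± 0.05 (0.098), and the difference between the lines was not called (-0.12 ± 0.08, edgeR adjusted p = 0.5). TIMM21, of the inner membrane channel, fell from control to heat in FaDu (-0.62 ± 0.12, edgeR adjusted p = 0.0094) and SAS (-0.36 ± 0.12, 0.048), and from RT to HT + RT in FaDu (-0.79 ± 0.12, 0.0023). Its SAS value there was -0.13 ± 0.12 (0.47), and that difference between the lines was called (-0.67 ± 0.17, edgeR adjusted p = 0.027). TIMM8A fell from control to heat in SAS (-0.46 ± 0.15, edgeR adjusted p = 0.046), and was not called there from RT to HT + RT (-0.38 ± 0.14, 0.057).

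Of 11 regulators of the mitochondrial unfolded protein response, 3 rose and 2 fell in FaDu (27.3% and 18.2%). The shares of all genes also tested between control and RT were 6.51% and 10.0%. In SAS 1 rose and 0 fell (9.09%, beside 10.5% higher and 11.9% lower). DDIT3, which encodes CHOP, rose from control to heat in FaDu (0.43 ± 0.11, edgeR adjusted p = 0.026), and its SAS value was 0.22 ± 0.11 (0.18). With heat in irradiated spheroids DDIT3 rose in both FaDu (0.60 ± 0.13, edgeR adjusted p = 0.016) and SAS (0.66 ± 0.11, 0.0008). Its difference between the lines was not called for heat alone (0.24, 0.52) or in irradiated spheroids (-0.09, 0.88). ATF5, a bZIP factor known from that response, was not called from control to heat, with -0.34 ± 0.11 in FaDu (edgeR adjusted p = 0.067) and -0.4 ± 0.14 in SAS (0.052). In the comparison of RT with HT + RT ATF5 fell in both FaDu (-0.59 ± 0.08, edgeR adjusted p = 0.0017) and SAS (-0.42 ± 0.13, 0.035). From control to heat FOXO3 fell in FaDu (-0.41 ± 0.10, edgeR adjusted p = 0.019), where NRF1 fell too (-0.31 ± 0.09, 0.039), and NRF1 rose in SAS (0.29 ± 0.09, 0.026). From RT to HT + RT both fell again in FaDu (-0.41 ± 0.07, edgeR adjusted p = 0.0044, and -0.49 ± 0.12, 0.022). NRF1 was not called there in SAS (0.25 ± 0.09, edgeR adjusted p = 0.056).

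Chaperones of other compartments give the scale. All 12 cytosolic heat shock genes rose in heated SAS and 10 of 12 in heated FaDu, 8 and 7 of them altered, with median log2 fold changes of 2.17 and 1.34, above those of HSPD1 (1.02 and 0.66). HSPA1B had 5.0 ± 0.15 in FaDu and 4.68 ± 0.10 in SAS, and HSPA1A, a near-identical copy whose reads cannot be told apart with certainty, 4.8 ± 0.16 and 4.56 ± 0.09. DNAJB1 had 4.96 ± 0.13 and 4.23 ± 0.08, BAG3 1.57 ± 0.21 and 2.99 ± 0.08, and HSP90AB1 0.47 ± 0.08 and 0.77 ± 0.05. HSPA4, an Hsp110 of the cytosol, had -0.09 ± 0.07 in FaDu and 1.15 ± 0.05 in SAS. Of the 8 subunits of CCT, the cytosolic chaperonin, 1 rose in FaDu and 6 in SAS, with medians of 0.04 and 0.25. TCP1 was the highest of them in both lines (0.62 ± 0.09 and 0.65 ± 0.06), and CCT7 (0.11 ± 0.06, edgeR adjusted p = 0.2) the lowest in SAS and CCT6A (-0.04 ± 0.07, 0.77) in FaDu. Of 10 chaperones of the endoplasmic reticulum 0 were called in FaDu and 2 fell in SAS, among them HSPA5 (BiP, -0.36 ± 0.07, edgeR adjusted p = 0.0022), the lowest there. The highest in SAS was DNAJB11 (0.14 ± 0.07, edgeR adjusted p = 0.17), and in FaDu the values ran from DNAJC3 (-0.29 ± 0.10, 0.074) to HSP90B1 (0.25 ± 0.08, 0.074). The heat values of HSPD1 and HSPE1 lay between those of the cytosolic heat shock genes and those of CCT in the median of each list.

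From RT to HT + RT, where 9.37% and 9.9% of all genes rose and fell in FaDu and 14.1% and 13.8% in SAS, the lists were counted again. Over the genes also tested between control and RT these shares were 7.65% and 10.3% in FaDu and 12.5% and 14.3% in SAS. In FaDu and SAS 0 and 1 of the co-chaperones rose and 0 fell, and of the other proteases 0 and 1 rose and 1 and 2 fell. Of the import genes 0 and 2 rose and 3 and 4 fell, and of the unfolded protein response regulators 2 and 1 rose and 4 and 1 fell. The cytosolic heat shock genes rose in 11 and 12 of 12 cases, with medians of 1.66 and 2.32, and CCT subunits in 1 and 6 of 8. Of the endoplasmic reticulum chaperones 3 and 2 rose and 1 and 3 fell.

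**Figure D4:**
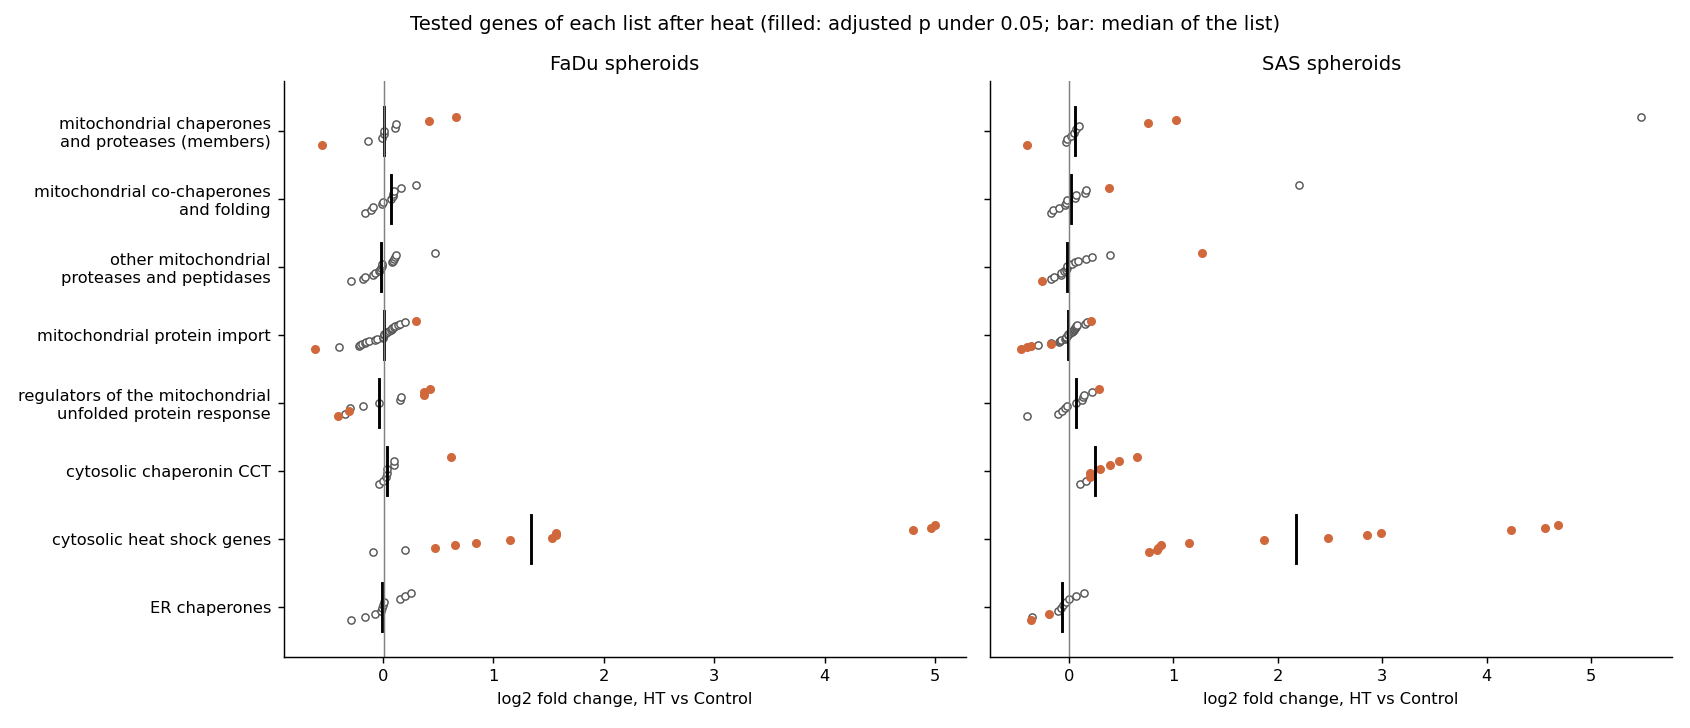
Log2 fold change from Control to HT of each tested gene of the 10 members and of 7 companion lists, in FaDu and SAS spheroids (filled points: edgeR adjusted p under 0.05, open points: not called, or entered through heated libraries alone, bars: list median, vertical line: median of all genes). The cytosolic heat shock genes reach 5.0 and 4.68, and among the members HSPD1 and HSPE1 are filled above 0, CLPX is filled below 0, and HSPE1-MOB4 is open at 5.48 in SAS.

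Pseudogenes took few of the counts. The 17 annotated HSPD1 pseudogenes together held 0.134% of the counts of HSPD1 over all libraries, the 26 HSPE1 pseudogenes 0.218% of those of HSPE1, and the 1 HSPA9 pseudogene 0.0147% of those of HSPA9.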

How the data were processed

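RNA was sequenced from 24 spheroid libraries (3 per group, 8 groups), and raw counts, whole reads per Ensembl gene, are what the authors deposited. The submitters' processing notes name bcl2fastq, DESeq2 and the build mm9, although all gene identifiers are human, and the aligner, counting program, strand setting and annotation are not given in the sources used here. Normalized tables were left out, since they hold the same counts scaled separately for each comparison. Repeat columns of a control library were identical in 18 of 18 cases. Of 57500 identifiers 56898 were in GENCODE v29, and the remaining 602 held 0.0217% of counts.

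The members, lists and tests were chosen with earlier results of these data known. Each comparison used edgeR 4.0.16 (R 4.3.3) quasi-likelihood tests on its own libraries, with TMM scaling, filterByExpr (minimum count 10) and Benjamini-Hochberg adjustment over all genes tested, and calls were made at 0.05 and at an absolute log2 fold change over 1. Genes tested with heat but not between control and RT of the same line were left out of the counts of called members and lists. Among the named genes of these sets they were HSPE1-MOB4 and DNLZ. Differences between lines were interaction terms over 12 libraries. Ratios of raw counts (plus 0.5) were tested by exact two-sided permutation within irradiated and within unirradiated libraries, whose smallest p is 0.005. Scripts were tested on simulated data.

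Named genes were all 10 members, MOB4, up to 5 altered genes of each companion list with its highest and lowest gene after heat in each line, and the 5 genes with the highest Pearson correlation with HSPD1 (log2 CPM, prior count 2, mean log2 CPM of at least 3). RFTN2, COL1A1, DNAJC15, HSPB1, STIP1, CCT4, CCT2, ATF4 and the other readthrough genes were picked once their values had been seen. The companion lists were mitochondrial co-chaperones, other mitochondrial proteases, protein import, regulators of the mitochondrial unfolded protein response, cytosolic chaperonin CCT, cytosolic heat shock genes and ER chaperones, and marker lists were squamous, fibroblast, leukocyte and endothelial genes. Library totals ran from 15203484 to 29452514 counts. Libraries with the same number were checked as pairs. After removing group means, correlations were above 0.1 for all pairs within a line except 2 of the 3 between SAS control and heat, 0.0248 and 0.0815, so the replicate number was tried as a block.

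Alternatives were DESeq2 1.42.0, RLE factors, library totals alone, a stricter filter (10 counts or more in each library) and none, 1 fit over all groups, the replicate block, glmTreat for altered genes, HSPE1-MOB4 counts added to HSPE1, and each library left out. For ratios they were a pseudocount of 2, no strata and, chosen after seeing the data, permutation within replicate numbers and within pairs of the same replicate number and radiation. The FaDu libraries numbered 1 left out together, and coding length for levels per length, were chosen after seeing the data. Promoter windows were those of RefSeq (GRCh38.p14).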

Additional observations from a re-analysis of the deposited data

Results flagged for a closer look

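Each difference below is the heat response of FaDu spheroids minus that of SAS spheroids on the log2 scale, from an edgeR interaction term, and each is given as a value with no explanation. Among the members, HSPE1 had -0.61 ± 0.10 (SE, adjusted p = 0.0015) in irradiated spheroids, and -0.31 ± 0.13 (0.2) for heat alone. MOB4, the downstream neighbor of HSPE1, had -0.61 (0.015) for heat alone and -1.11 (2.3e-05) in irradiated spheroids. HSPE1-MOB4 had -5.95 ± 1.06 for heat alone and -5.79 ± 0.78 in irradiated spheroids, with 0 to 5 counts in every FaDu library, and RFTN2, a gene further downstream on the opposite strand, had -3.84 ± 1.05 for heat alone and -3.08 ± 0.91 in irradiated spheroids. No p is given for these last 2 genes, HSPE1-MOB4 having entered through heated SAS libraries alone and RFTN2 having been picked once its values were seen. With so few counts in unheated SAS spheroids, the size of the values of both genes depends on the prior count.

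The 5 genes whose pattern was most like that of HSPD1 had negative values too, given without a p because they were picked for following HSPD1 in the same libraries. For heat alone and in irradiated spheroids HSPH1 had -1.25 and -0.96, FKBP4 -0.78 and -0.62, MRPL18 -0.75 and -0.79, CACYBP -0.64 and -0.61, and DNAJA1 -0.69 and -0.50.

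Of the companion lists, with heat alone first and irradiated spheroids second, HSPA4 had -1.21 (adjusted p = 8.3e-07) and -1.17 (2.5e-07), BAG3 -1.39 (0.0029) and -0.78 (0.044), and CCT6A, a subunit of the cytosolic chaperonin, -0.40 (0.026) and -0.52 (0.00082). DNAJB1 rose more in FaDu, with 0.76 (0.005) and 0.63 (0.029). XPNPEP3 had -1.26 (3e-05) and -1.33 (0.00011), NRF1 -0.58 (0.0067) and -0.76 (0.0058), and TIMM21 -0.67 (0.027) in irradiated spheroids and -0.22 (0.58) for heat alone. These genes were named for being altered, or the highest or lowest of their list, after heat in these same libraries. Where a gene was picked on its value in 1 line, a difference between the lines is in part set by that choice. Other called genes of these lists were named after their values were seen, and are therefore given without a p. They were HSPB1 with -0.92 and -0.86, STIP1 with -0.62 and -0.61, and CCT4 with -0.41 and -0.47. CCT2 was called in irradiated spheroids (-0.30) and not for heat alone (-0.24). ATF4, like DNAJB1, had a higher value in FaDu, called for heat alone (0.44) and not in irradiated spheroids (0.14).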

How the results depend on the processing

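Over 123 results of a member in a comparison, 1876 alternative values were computed, of which 1848 kept their side of the threshold, 14 lost the call, 14 gained it and 0 reversed. In 123 of the 1848 the sign differed, with no call on either side. The calls of HSPD1 and CLPX in the heat comparisons were the same in every alternative. The ratio tests kept their side of the threshold in every alternative but 1: within pairs of the same replicate number and radiation, chosen after seeing the data, none passed, with HSPE1 to HSPD1 at -0.30 and -0.19 (FaDu and SAS), CLPX to CLPP at -0.61 and -0.51 and HSPE1-MOB4 to HSPE1 at 4.75 (SAS), where only 64 arrangements exist, with a smallest p of 0.031 before adjustment (0.062 for HSPE1 to HSPD1 in SAS). Counts in this section include HSPE1-MOB4 where it was tested, which in SAS rested on its heated libraries alone. The altered count in SAS from control to heat went from 2 to 1 with library totals alone, with glmTreat (HSPD1, at a log2 fold change near 1), with at least 10 counts in every library and with HSPE1-MOB4 added to HSPE1. Those last alternatives remove HSPE1-MOB4 by construction, and with it the interaction counts: for heat alone, called 1 to 0 and altered 1 to 0, and in irradiated spheroids, called 2 to 1 and altered 1 to 0. Without a filter the count for SAS from HT to HT + RT went from 0 to 1, and that for the interaction for heat alone from 1 to 3. With the replicate block these counts went to 2 and 2. The interaction in irradiated spheroids gained HSPD1 without a filter (-0.32, edgeR adjusted p = 0.0097) and with the replicate block (-0.36, 0.02). The cause of these gains was not tested.

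With each library left out in turn, members called ran from 2 to 3 (FaDu heat), 4 to 4 (SAS heat), 3 to 3 (FaDu RT to HT + RT), 4 to 4 (SAS RT to HT + RT), 2 to 3 and 4 to 4 (control to HT + RT, FaDu and SAS), 0 to 0 (both RT comparisons and both from HT to HT + RT), 5 to 7 (FaDu against SAS controls), 1 to 2 (interaction, heat alone) and 2 to 3 (interaction, irradiated). Altered members ran from 1 to 2 (SAS heat), 3 to 3 (SAS RT to HT + RT), 2 to 3 (SAS control to HT + RT), 1 to 1 (controls and both interactions) and 0 to 0 in the other comparisons. Here too HSPE1-MOB4 is included in the SAS heat comparisons and in both interactions. With all libraries it was the only altered member of the interactions, and without it 0 were altered there. The ratio differences ran, in FaDu and SAS, from -0.33 to -0.25 and -0.21 to -0.15 (HSPE1 to HSPD1), -0.07 to -0.04 and 0.02 to 0.08 (GRPEL1 to HSPA9), -0.64 to -0.59 and -0.55 to -0.48 (CLPX to CLPP), and -1.11 to -0.40 and 4.55 to 4.92 (HSPE1-MOB4 to HSPE1). Ratios and comparisons between the lines were run without each FaDu library numbered 1, but not without all of them together. The planned level per length of the RefSeq protein was not run. Depth limits HSPE1-MOB4 in FaDu, at 0 to 5 counts per library.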

Other observations

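RFTN2, the gene downstream of MOB4 on the opposite strand (chr2:197568224-197676045, minus strand), was looked at because it follows the readthrough gene, and was chosen after its values were seen. Its counts in SAS were 1, 1 and 4 in controls, 1, 5 and 4 after RT, 294, 229 and 295 after heat, and 189, 160 and 291 after HT + RT. In FaDu they were 8, 5 and 16 in controls, 11, 5 and 11 after RT, 29, 51 and 140 with heat, and 20, 62 and 143 with the combined treatment. Every heated library was above every unheated one of its line. The log2 fold change from control to heat was 6.98 ± 0.33 in SAS and 3.11 ± 0.62 in FaDu. From RT to HT + RT it was 6.02 ± 0.38 and 2.96 ± 0.55. With 1 to 5 counts in every unheated SAS library, the size of the SAS values depends on the prior count of the fit, as for HSPE1-MOB4. These are descriptions of a gene picked for its values, so no p is given. Its unheated counts were also too low in both lines for a test between control and RT, so it entered through heated libraries. The strand setting of the counting is not given.

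Of 119 annotated readthrough genes, looked at because of HSPE1-MOB4, few had enough counts to be tested. HSPE1-MOB4 and others that entered through heated libraries alone are not counted here. From control to heat 2 of 26 in FaDu and 1 of 25 in SAS were altered, upward in each case, beside 2.72% and 3.42% of all genes tested also between control and RT. From RT to HT + RT the counts were 2 of 24 in FaDu and 1 of 23 in SAS, again upward, beside 2.87% and 3.86%. They were RBM14-RBM4 and SLX1A-SULT1A3 in FaDu and ZNF670-ZNF695 in SAS, the same in both comparisons.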
